A study of Mus musculus with 8 samples.

Results

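The genes described here code for ATP-binding cassette (ABC) proteins, and their transcripts were measured in libraries described as stromal cells of mouse tumors. Members were chosen by name from all genes of the count table. A member's symbol is Abc, a letter from a to g, a number and an optional a or b. Abcb11 has such a symbol but was left out. The rule used no measured value. It found 49 genes among 55487, with 16 in subfamily A, 9 in B, 10 in C, 4 in D, 1 in E, 3 in F and 6 in G. Of these, 37 had enough counts to be tested and 12 did not.

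The paper describes subcutaneous tumors of MC38 cells, a mouse colon cancer line, grown in Bmal1+/+ and Bmal1-/- mice. The series holds 4 libraries labelled Bmal1+/+ and 4 labelled Bmal1-/-. The paper counts them as samples and does not say whether each came from 1 mouse, which was assumed here. Bmal1-/- mice lack the clock transcription factor Bmal1 in the whole body from conception, and the implanted tumor cells of both groups carried the gene. Per the paper, the GFP-labelled tumor cells were removed by sorting, and the remaining stromal vascular fraction was sequenced as a bulk mixture of cell types. All mice lived in a cycle of 12 h of light and 12 h of darkness and received no drug that the labels name. Their sex and age, and the hour at which tumors were taken, are not given in the sources used here. The fourth library labelled Bmal1-/- carries another number in its title, and its description makes it replicate 4. In such a bulk mixture, fewer cells of a type and less RNA per cell cannot be told apart. P-values measure the spread between these samples.

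ABC proteins bind and hydrolyze ATP with a conserved pair of nucleotide-binding domains and, in most subfamilies, use that energy to move a substrate across a membrane. Subfamily A moves lipids, B holds drug and phospholipid pumps and mitochondrial transporters, C holds conjugate and anion pumps and the regulatory subunits of potassium channels, D serves peroxisomes and lysosomes, and G moves sterols and drugs. Subfamilies E and F lack membrane-spanning domains and act on ribosomes. The liver is rich in these proteins, since hepatocytes use them to secrete phospholipid, sterol and conjugated compounds into bile.

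Some facts of the whole series bear on every value below. Bmal1 (Arntl) was at 0.96 to 2.71 CPM (counts scaled to the library total, TMM-normalized) in libraries labelled Bmal1+/+ and at 30.1 to 35.0 CPM in those labelled Bmal1-/-. The targeted gene thus went against the labels, so both groups are called by their label only. The clock output genes Dbp and Nr1d1, which Bmal1 activates, went with the labels, at 67.0 to 113 against 3.73 to 6.97 CPM for Dbp and at 38.4 to 52.4 against 1.56 to 4.13 CPM for Nr1d1. Xist, transcribed from the inactive X chromosome, was at 844 to 1095 CPM in libraries labelled Bmal1+/+ and at 0.142 to 0.749 CPM in the others, and 4 Y-linked genes had no count in any library labelled Bmal1+/+ and 183 to 957 counts in the others. By these transcripts the libraries labelled Bmal1+/+ read as female and the others as male. Genotype label and sex thus cannot be told apart in any comparison below. The 8 hepatocyte markers summed to between 86796 and 98118 CPM in libraries labelled Bmal1+/+ and to between 45620 and 48970 CPM in the others. The 8 fibroblast markers summed to 136 to 218 and 103 to 109 CPM. The libraries were thus led by hepatocyte transcripts, which goes against their description as a sorted stromal fraction of tumors. The reason was not tested. The acute-phase gene Saa1 was at 7751 CPM in replicate 4 labelled Bmal1-/-. In the other 3 of that label it was at no more than 17.7 CPM. Calls of ABC genes that change without replicate 4 are given both ways. Calls of listed partner genes and of markers are given with all 8 libraries only. Total counts lay between 14054825 and 18449143 per library, at which the floor of 3 counts is 0.163 to 0.213 CPM and covers counting error only.

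The ABC repertoire of the libraries labelled Bmal1+/+ was led by genes of the hepatocyte membrane and the peroxisome. Ranks, shares and family sums given here cover the 49 members and leave out Abcb11. Per length, Abcc2 had the highest level with 95.4 ± 10.1 FPKM (SD, n = 4; fragments scaled to transcript length and library total), which was 16.7% of the FPKM summed over the family. It codes for the pump that secretes conjugated bilirubin and glutathione conjugates into bile. Abcd3, a peroxisomal membrane transporter, followed with 81.5 ± 16.7 FPKM (SD, n = 4), a gap to Abcc2 within the SD of Abcd3. Next came Abca6 with 50.8 ± 4.69 FPKM (SD, n = 4), the sterol transporter subunit Abcg5 with 44.7 ± 5.79 FPKM (SD, n = 4) and the basolateral conjugate pump Abcc3 with 41.7 ± 4.24 FPKM (SD, n = 4), where Abcg5 and Abcc3 lay within each other's SD. The 5 leading genes held 54.9% of the family's FPKM in libraries labelled Bmal1+/+ and the same 5 genes held 49.7% in the libraries labelled Bmal1-/-. There Abcc2 stayed in rank 1, Abcg5 was in rank 2 and Abcd3 in rank 3. The family summed to 573 ± 14.6 FPKM (SD, n = 4) in libraries labelled Bmal1+/+ and to 512 ± 79.3 FPKM (SD, n = 4) in the libraries labelled Bmal1-/-. The largest move in rank was that of Abcd2, from 11 to 35.

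**Figure D1:**
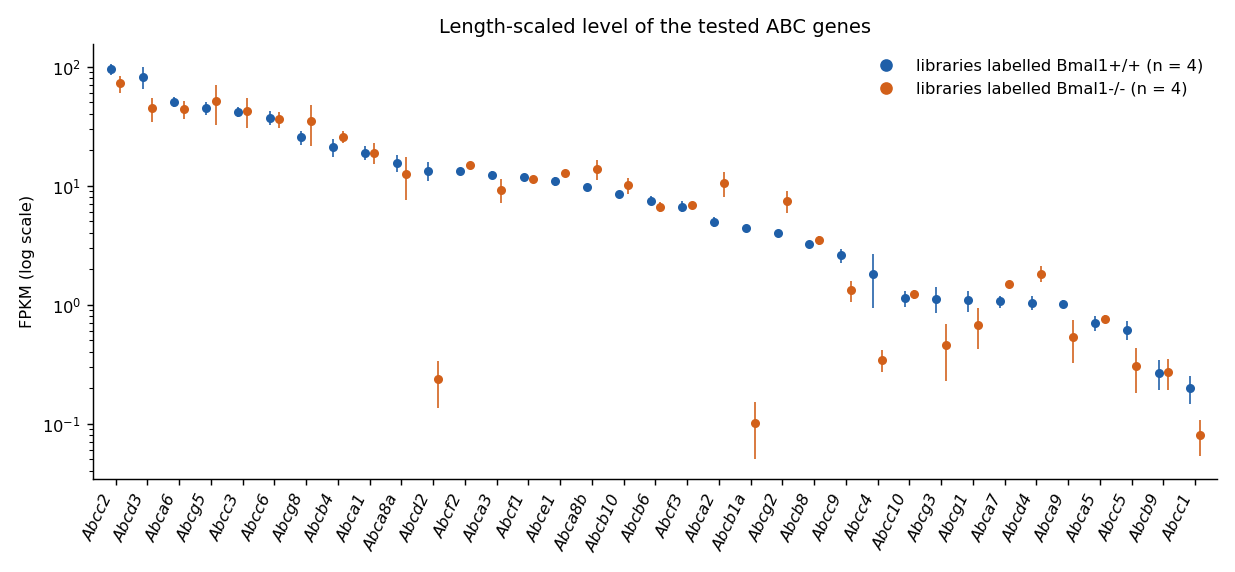
Length-scaled level (FPKM, log axis) of 35 of the 37 tested ABC genes, ordered by the mean of those labelled Bmal1+/+; points are means and bars are SD over 4 libraries of each label. Abcd2 falls from 13.3 to 0.236 FPKM, Abcb1a from 4.39 FPKM to 2.24% of its CPM in the libraries labelled Bmal1+/+, and 20 of the 35 genes drawn were not called.

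The study's question is which transcripts of the tumor host differ with the Bmal1 genotype, and the comparison here is between the labels. With edgeR's quasi-likelihood test, adjusted by Benjamini and Hochberg's method over 14353 genes, 11 of the 37 tested ABC genes were lower in the libraries labelled Bmal1-/- (29.7%, against 16.2% of all genes tested) and 5 were higher (13.5%, against 14.9%), at an adjusted p below 0.05. The groups did not overlap in 11 genes that were lower (29.7%, against 16.8% of all genes) and in 7 that were higher (18.9%, against 16.7%). With the study's criterion (a log2 fold change beyond 1 in size, p below 0.05 before adjustment), 7 genes were lower (18.9%, against 8.71%) and 1 was higher (2.70%, against 5.41%). The 37 genes had a median log2 fold change of -0.07, and all genes tested had 0.02. Without replicate 4 labelled Bmal1-/-, 12 genes were lower and 6 higher, with 8 and 0 past the study's criterion, and without replicate 2 of that label 7 were lower. Subfamily C held 5 of the 11 lower genes, and subfamily A held 3 of the 5 higher ones.

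**Figure D2:**
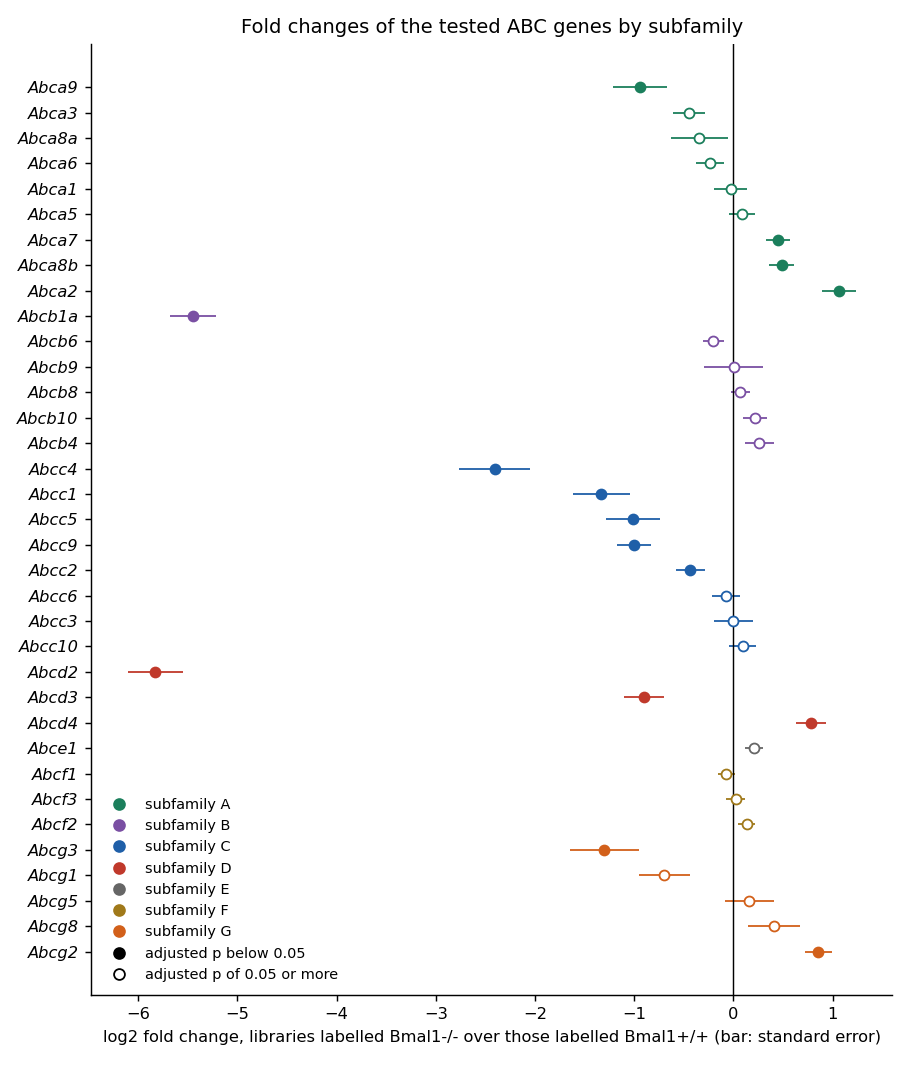
Log2 fold change of 35 of the 37 tested ABC genes, libraries labelled Bmal1-/- over those labelled Bmal1+/+ (bars are standard errors from edgeR), grouped and colored by subfamily; filled points have an adjusted p below 0.05. Abcd2 (-5.83) and Abcb1a (-5.45) stand far to the left of all other members, and the highest value is that of Abca2 (1.06).

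In subfamily D, Abcd2 and Abcd3 were lower and Abcd4 was higher. Abcd2, which imports very-long-chain and polyunsaturated fatty acyl-CoA into peroxisomes, fell the most of all members. It was at 89.3, 61.7, 91.6 and 92.9 CPM in replicates 1 to 4 labelled Bmal1+/+ and at 1.12, 0.970, 1.35 and 2.44 CPM in the libraries labelled Bmal1-/-. The latter rest on 18, 14, 19 and 36 counts. Every library labelled Bmal1+/+ was far above every other one, with means of 83.9 ± 14.9 and 1.47 ± 0.666 CPM (SD, n = 4 each), a 56.7-fold difference (log2 fold change -5.83, standard error, SE, 0.28, adjusted p = 1.3e-06 by edgeR). Its log2 fold change was -6.18 without replicate 4 labelled Bmal1-/-.

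A smaller change was measured in Abcd3. This gene, also called PMP70, which imports branched-chain and bile acid precursors, was at 718, 747, 574 and 974 CPM in libraries labelled Bmal1+/+ and at 384, 498, 435 and 294 CPM in the libraries labelled Bmal1-/-. The lowest value labelled Bmal1+/+ lay above the highest of the other group, and the log2 fold change was -0.90 (SE 0.20, adjusted p = 0.0084 by edgeR). Abcd4, which works on lysosomes in the release of vitamin B12, went the other way, at 12.5, 17.2, 13.0 and 14.6 CPM against 25.8, 19.5, 24.6 and 29.1 CPM. Its log2 fold change was 0.79 (SE 0.15, adjusted p = 0.0039 by edgeR).

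Of 18 listed enzymes and import factors of the peroxisome, 5 were lower (27.8%, against 16.2% of all genes tested), 3 were higher (16.7%, against 14.9%) and 10 were not called, with a median log2 fold change of -0.19. Scp2, a sterol carrier and thiolase, rose by 1.93 and Acox2, the oxidase of branched chains and bile acid intermediates, rose by 1.38 on the log2 scale (adjusted p = 1.7e-05 and 1.5e-04 by edgeR). Ehhadh, the bifunctional enzyme of the straight-chain pathway, had a log2 fold change of -1.33 (adjusted p = 0.0094 by edgeR). Pex19, which delivers proteins of the Abcd group to the peroxisomal membrane, had -0.45 (adjusted p = 0.038 by edgeR).

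**Figure D3:**
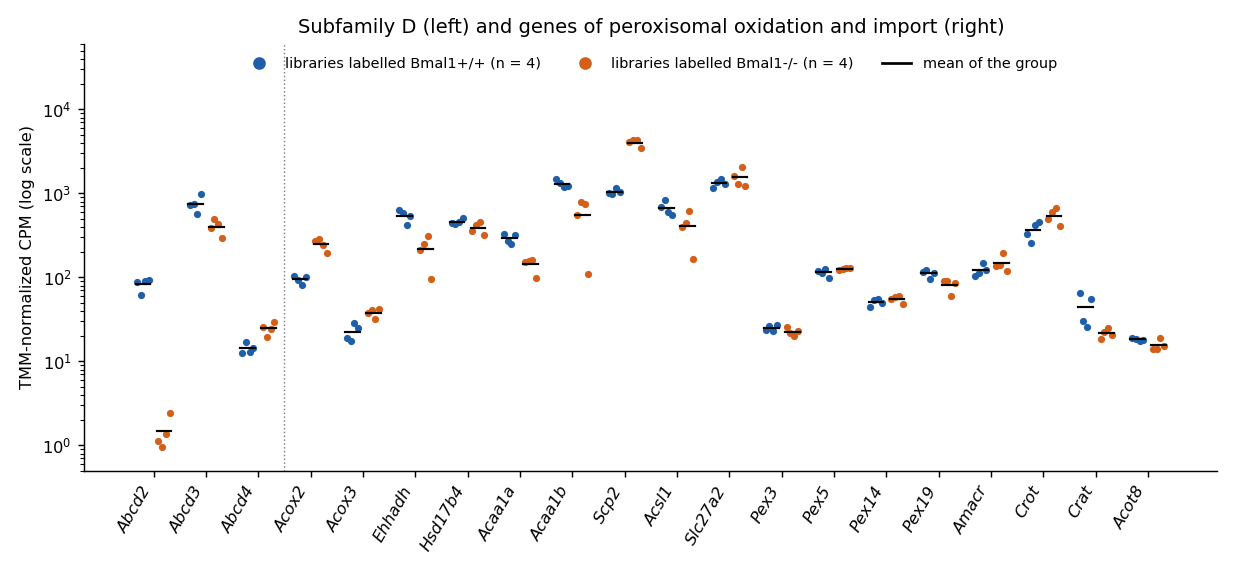
TMM-normalized CPM (log axis) in each of the 8 libraries for 3 genes of subfamily D, left of the dotted line, and 17 genes of peroxisomal oxidation and import; black bars are group means. Abcd2 is the only one of these 20 genes whose 2 groups lie more than 10-fold apart.

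In subfamily B, 1 of 7 tested genes was lower (14.3%, against 16.2% of all genes tested) and none was higher (0%, against 14.9%). Abcb1a codes for P-glycoprotein, the drug efflux pump of endothelium, gut and liver. It was at 32.2, 30.6, 30.2 and 31.5 CPM in libraries labelled Bmal1+/+, a very narrow range, and at 1.19, 0.416, 0.640 and 0.543 CPM in the libraries labelled Bmal1-/-, where it had 19, 6, 9 and 8 counts. All 4 of these were low, and the fold difference was 43.7 (log2 fold change -5.45, SE 0.24, adjusted p = 8.3e-07 by edgeR). The gene passed the filter on low counts only through the libraries labelled Bmal1+/+. It has 2 related neighbors on chromosome 5. Abcb1b, the second mouse P-glycoprotein gene, starts 49572 bases after the end of Abcb1a and had 11, 11, 20 and 10 counts against 8, 2, 9 and 7, too few to be tested. Abcb4, which flops phosphatidylcholine into bile and starts 27402 bases after Abcb1b, was at 196, 189, 225 and 275 CPM against 272, 273, 291 and 224 CPM (log2 fold change 0.26, SE 0.15, adjusted p = 0.21 by edgeR), with overlapping groups. Of all 75-base windows in the transcripts of Abcb1a, 12.5% also occur in Abcb1b or Abcb4, so reads there are uncertain in origin.

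Further members of subfamily B were not called. Abcb10, a mitochondrial inner-membrane protein of heme-forming cells, had 0.21, the mitochondrial Abcb8 had 0.07, and the lysosomal peptide transporter Abcb9 had 0.00 at a mean of 1.91 CPM in libraries labelled Bmal1+/+. Abcb6, a porphyrin transporter, had -0.20, but 47.5% of its 75-base windows also belong to the annotated gene Gm29253. Among 18 mitochondrial genes of iron-sulfur and heme synthesis, 3 were lower (16.7%, against 16.2% of all genes tested), 1 was higher (5.56%, against 14.9%) and 14 were not called (median -0.10). Alas1, the rate-limiting enzyme of heme synthesis, had a log2 fold change of -2.54 and the iron importer Slc25a37 had -0.47 (adjusted p = 5.2e-05 and 0.017 by edgeR). Tap1 and Tap2, the peptide transporter that belongs to subfamily B by structure but not by symbol, had 0.10 and -0.40 (adjusted p = 0.73 and 0.024 by edgeR). In their list of 14 peptide-loading genes 8 were lower (57.1%, against 16.2% of all genes) and 1 was higher (7.14%, against 14.9%), with a median of -0.44, among them the chaperone Calr (0.88), the activator Nlrc5 (-0.86) and the class I heavy chain H2-K1 (-0.81).

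**Figure D4:**
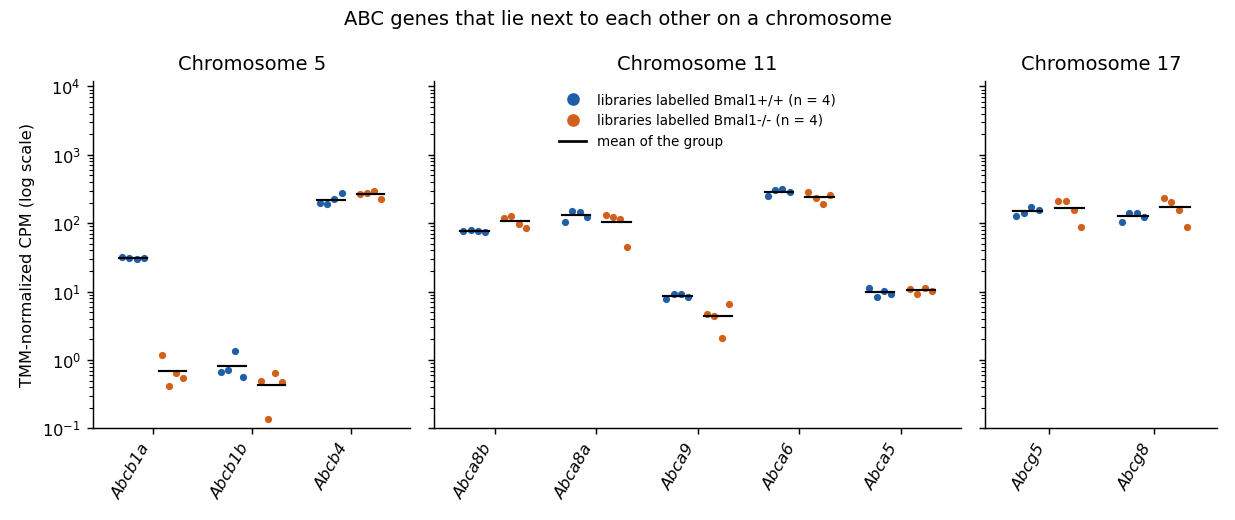
TMM-normalized CPM (log axis) in each of the 8 libraries for 3 groups of adjacent ABC genes, in chromosomal order; black bars are group means. Abcb1a was lower and Abcb4 was not called, Abca9 was lower and Abca8b higher in the chromosome 11 group, and Abcg5 and Abcg8 vary together across the libraries labelled Bmal1-/-.

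Subfamily C held the most lower genes, 5 of 8 tested (62.5%, against 16.2% of all genes tested). None was higher (0%, against 14.9%), and the median log2 fold change was -0.72. Abcc4, the pump of cyclic nucleotides, prostaglandins and sulfated bile acids, was at 21.6, 12.0, 6.18 and 16.5 CPM in libraries labelled Bmal1+/+ and at 3.25, 2.63, 1.92 and 2.78 CPM in the libraries labelled Bmal1-/-. The values labelled Bmal1+/+ were wide, with the lowest still above all of the others, and the log2 fold change was -2.41 (SE 0.36, adjusted p = 0.00099 by edgeR). Abcc1, which exports leukotriene C4 and glutathione conjugates, was at 3.31, 3.20, 2.89 and 5.07 CPM against 1.12, 1.39, 1.07 and 2.17 CPM, with no overlap. Its log2 fold change was -1.33 (SE 0.29, adjusted p = 0.0072 by edgeR). For Abcc5, a further pump of cyclic nucleotides, the values were 10.2, 9.60, 10.3 and 6.96 CPM against 6.74, 3.53, 2.63 and 5.36 CPM, so the groups nearly met, and the log2 fold change was -1.01 (SE 0.28, adjusted p = 0.020 by edgeR). The call was lost without replicate 1 labelled Bmal1+/+ (adjusted p = 0.051 by edgeR) or replicate 2 labelled Bmal1-/- (adjusted p = 0.056 by edgeR).

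Abcc9 codes for SUR2, the regulatory subunit of ATP-sensitive potassium channels in muscle and vessels. It was at 24.4, 32.7, 23.2 and 27.9 CPM against 15.9, 13.1, 9.82 and 15.1 CPM, well apart, with a log2 fold change of -1.0 (SE 0.17, adjusted p = 0.0021 by edgeR). The channel pore subunit Kcnj8 was at 2.55 to 4.01 CPM against 2.49 to 4.56 CPM (log2 fold change 0.19, adjusted p = 0.58 by edgeR). Kcnj11, a further pore subunit of such channels, had at most 1 count. The leading member Abcc2 was at 939, 1143, 1205 and 1060 CPM against 935, 858, 720 and 700 CPM. Its groups were parted by a narrow gap, and the log2 fold change of -0.44 (SE 0.15, adjusted p = 0.046 by edgeR) lost its call when any 1 library other than a replicate 1 was left out, up to an adjusted p of 0.11 by edgeR. It was also lost by library size only (adjusted p = 0.071 by edgeR), in the likelihood ratio test (adjusted p = 0.062 by edgeR), without the count filter (adjusted p = 0.072 by edgeR) and with the replicate number as a block, which makes 10 of 17 alternatives. The other tested members of subfamily C had log2 fold changes near 0. Abcc3 had a log2 fold change of 0.00 (SE 0.20), Abcc6, which drives hepatic ATP release and is defective in pseudoxanthoma elasticum, -0.07 (SE 0.14) and Abcc10 0.09 (SE 0.13), whose gene overlaps Dlk2 on the opposite strand. Their values overlapped, at 280 to 346 against 189 to 381 CPM for Abcc3, 210 to 294 against 206 to 275 CPM for Abcc6 and 13.9 to 19.3 against 15.2 to 18.0 CPM for Abcc10.

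**Figure D5:**
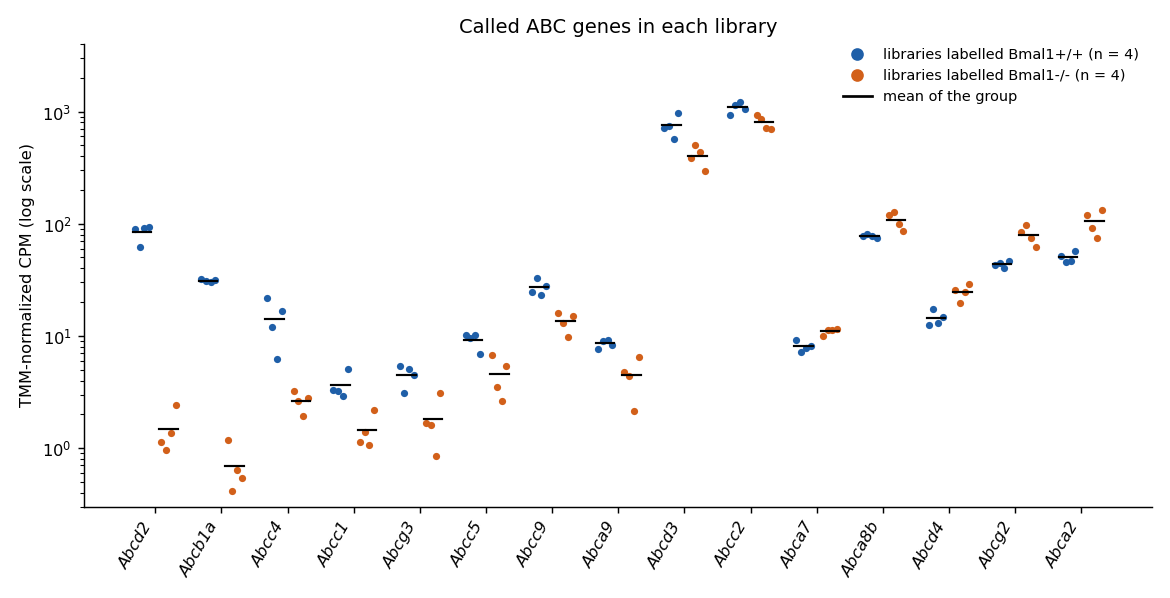
TMM-normalized CPM (log axis) of 15 of the 16 ABC genes with an adjusted p below 0.05 in each of the 8 libraries, ordered by fold change; black bars are group means. In 14 of the 15 genes drawn the 2 groups do not overlap, and Abcg3 overlaps through 1 library at 3.12 CPM.

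In subfamily A, 1 of 9 tested genes was lower (11.1%, against 16.2% of all genes tested) and 3 were higher (33.3%, against 14.9%). The median log2 fold change was -0.03. Abca2, an endolysosomal transporter tied to sterol and sphingolipid handling, rose the most of all members. It was at 51.1, 45.9, 46.6 and 56.8 CPM in libraries labelled Bmal1+/+ and at 118, 92.4, 74.9 and 133 CPM in the others, with no overlap (log2 fold change 1.06, SE 0.17, adjusted p = 0.0017 by edgeR). Without replicate 4 labelled Bmal1-/- the log2 fold change was 0.93. Abca7, a phospholipid exporter linked to phagocytosis, was at 9.15, 7.23, 7.79 and 8.19 CPM against 10.1, 11.4, 11.3 and 11.5 CPM, a small shift with no overlap. Its log2 fold change was 0.45 (SE 0.12, adjusted p = 0.021 by edgeR), and the call was lost without any of 3 single libraries, replicates 2 and 3 labelled Bmal1+/+ (adjusted p = 0.062 and 0.050 by edgeR) and replicate 2 labelled Bmal1-/- (adjusted p = 0.051 by edgeR). Abca1, which passes cholesterol to apolipoprotein A-I, was at 234, 205, 190 and 177 CPM against 202, 205, 142 and 242 CPM, with overlapping groups and a log2 fold change of -0.03 (SE 0.16, adjusted p = 0.92 by edgeR), or -0.14 without replicate 4 labelled Bmal1-/-. Abca3, the transporter of surfactant lipids, was at 158, 143, 141 and 153 CPM against 84.9 to 149 CPM, where only replicate 4 labelled Bmal1-/- reached the range of those labelled Bmal1+/+. It had -0.44 (adjusted p = 0.063 by edgeR), and -0.63 without that library (adjusted p = 0.0024 by edgeR).

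The 5 genes Abca8b, Abca8a, Abca9, Abca6 and Abca5 lie side by side on the minus strand of chromosome 11 (GRCm38, 109932190 to 110337716). Of these, 1 was lower, 1 was higher and 3 were not called, where 16.2% of all genes tested were lower and 14.9% higher. In chromosomal order, Abca8b was at 77.3, 80.2, 77.3 and 74.2 CPM against 121, 127, 98.8 and 86.6 CPM, higher in every library of the second group (log2 fold change 0.49, SE 0.13, adjusted p = 0.017 by edgeR). Abca8a, its closest relative, was at 105, 151, 147 and 124 CPM against 131, 125, 114 and 45.5 CPM. These groups overlapped, and replicate 4 labelled Bmal1-/- was low. The log2 fold change was -0.35 with it (adjusted p = 0.39 by edgeR) and -0.095 without it. Abca9 was at 7.70, 9.09, 9.14 and 8.35 CPM against 4.75, 4.43, 2.13 and 6.51 CPM, all lower (log2 fold change -0.94, SE 0.27, adjusted p = 0.026 by edgeR). The call of Abca9 was lost without replicate 2 or 3 labelled Bmal1+/+ (adjusted p = 0.062 and 0.057 by edgeR) or replicate 2 labelled Bmal1-/- (adjusted p = 0.060 by edgeR). Abca6 had a log2 fold change of -0.24 (251 to 313 against 192 to 285 CPM) and Abca5 had 0.09 (8.39 to 11.3 against 9.35 to 11.2 CPM), neither called. The proteins of this group are related to Abca1, and their substrates are less well known. Abca8a and Abca8b share 0.559% and 0.485% of their 75-base windows with each other.

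Of 17 listed partners of cholesterol efflux and high-density lipoprotein (HDL), 4 were lower (23.5%, against 16.2% of all genes tested), 2 were higher (11.8%, against 14.9%) and 11 were not called, with a median of -0.03. Apoa1, the acceptor of lipid from Abca1, was at 1505 to 3065 CPM against 5781 to 7782 CPM (log2 fold change 1.58, adjusted p = 0.0011 by edgeR). Lipg, endothelial lipase, had -4.26 and Pltp, the phospholipid transfer protein, had -1.93 (adjusted p = 3.1e-04 and 6.0e-05 by edgeR). The HDL receptor Scarb1 had 1.21 (adjusted p = 1.1e-04 by edgeR).

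Bmal1 and its partner Clock bind the E-box CACGTG, and the PAR bZIP factor Dbp binds the D-box TTATGTAA, so both motifs were searched on both strands of promoter windows from RefSeq (GRCm38.p6, 250 bases before to 50 after each start). Of the 49 members, 37 had a window, with 44 windows in all. Of the 16 called members 12 had one, and Abcd2, Abcc1 and Abcd4 were among those without, so they were not searched. The window of Abcb1a, chr5:8566841-8567140, lies far before the gene start used here (8660077), and the sequence at that start was not searched. CACGTG, which reads the same on both strands, occurred in 6 of the 44 windows (13.6%) and in 7.15% of all 32851 windows. TTATGTAA occurred in none of the 44 and in 0.938% of all windows. The windows with CACGTG were those of Abcc4, Abca8b, Abca8a, Abca1, Abcf1 and Abca15. Abcc4 was lower, Abca8b was higher, Abca8a, Abca1 and Abcf1 were not called, and Abca15 had no count, so genes with the motif went each way. Shown here are 1 lower, 1 higher and 1 uncalled gene with the motif in capitals, in the windows chr14:118706170-118706469 for Abcc4, chr11:109995796-109996095 for Abca8b and chr4:53159846-53160145 for Abca1, each on the minus strand and written 5′ to 3′. The motif starts 205 bases before the start site in Abcc4, 18 bases after it in Abca8b and 147 bases before it in Abca1. A match is a description of these letters and not a site of binding.
Abcc4: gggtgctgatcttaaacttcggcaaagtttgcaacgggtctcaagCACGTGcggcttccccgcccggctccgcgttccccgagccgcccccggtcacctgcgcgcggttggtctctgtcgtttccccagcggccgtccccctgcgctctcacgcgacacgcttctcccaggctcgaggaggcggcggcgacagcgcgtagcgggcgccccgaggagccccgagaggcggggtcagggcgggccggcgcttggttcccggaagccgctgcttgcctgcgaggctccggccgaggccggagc
Abca8b: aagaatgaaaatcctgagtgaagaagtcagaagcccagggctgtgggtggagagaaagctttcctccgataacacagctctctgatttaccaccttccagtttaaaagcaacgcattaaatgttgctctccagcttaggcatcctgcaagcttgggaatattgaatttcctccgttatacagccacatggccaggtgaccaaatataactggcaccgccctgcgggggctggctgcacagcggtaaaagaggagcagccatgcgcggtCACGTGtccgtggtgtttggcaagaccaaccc
Abca1: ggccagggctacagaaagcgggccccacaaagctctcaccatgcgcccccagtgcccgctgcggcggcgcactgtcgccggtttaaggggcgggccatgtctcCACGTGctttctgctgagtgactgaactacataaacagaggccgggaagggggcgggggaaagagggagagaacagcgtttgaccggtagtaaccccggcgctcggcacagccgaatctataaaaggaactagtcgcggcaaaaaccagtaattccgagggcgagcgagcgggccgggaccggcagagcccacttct

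In subfamily G, 1 of 5 tested genes was higher (20%, against 14.9% of all genes tested) and 1 lower (20%, against 16.2%). Abcg2, the breast cancer resistance protein, exports drugs, urate and porphyrins. It was at 42.9, 44.6, 40.6 and 46.1 CPM against 83.9, 96.4, 73.9 and 61.7 CPM, higher in every library labelled Bmal1-/- (log2 fold change 0.86, SE 0.14, adjusted p = 0.0014 by edgeR). Abcg2 and Abcb1a, both multidrug pumps, thus differed in opposite directions. Abcg3 was at 5.42, 3.07, 5.04 and 4.45 CPM against 1.69, 1.59, 0.854 and 3.12 CPM. It is found in rodents and has no well-known substrate. Its log2 fold change was -1.30 (SE 0.35, adjusted p = 0.018 by edgeR), and the call was lost without replicate 1 labelled Bmal1+/+ (adjusted p = 0.050 by edgeR) or replicate 2 labelled Bmal1-/- (adjusted p = 0.051 by edgeR). Abcg1, which exports cholesterol from macrophages to HDL, was at 11.3, 8.13, 9.67 and 7.57 CPM against 5.62, 4.22, 3.91 and 8.82 CPM. Replicate 4 of the second label lay within the range of those labelled Bmal1+/+, and the log2 fold change was -0.70 (adjusted p = 0.068 by edgeR) with it and -0.99 without it (adjusted p = 0.0058 by edgeR).

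Abcg5 and Abcg8 form the heterodimer that secretes sterols into bile. Their genes lie on opposite strands of chromosome 17 and overlap by 6710 bases, and reads in the overlap cannot be told apart where strand was not used. Abcg5 was at 129, 139, 171 and 158 CPM against 212, 212, 155 and 88.0 CPM, and Abcg8 was at 103, 142, 142 and 125 CPM against 231, 204, 158 and 88.3 CPM. In both genes the first pair of libraries labelled Bmal1-/- was the highest and replicate 4 the lowest of all 8, so the groups overlapped. The log2 fold changes were 0.16 for Abcg5 and 0.41 for Abcg8 (adjusted p = 0.66 and 0.26 by edgeR). Without replicate 4 they were 0.37 and 0.63 (adjusted p = 0.082 and 0.015 by edgeR).

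None of the 4 tested members of subfamilies E and F was called, where 16.2% of all genes tested were lower and 14.9% higher. Abce1, which splits ribosomes after termination, was at 77.5, 65.9, 70.9 and 78.2 CPM against 82.7, 86.8, 85.9 and 83.0 CPM, a small gap with no overlap (log2 fold change 0.21, SE 0.09, adjusted p = 0.10 by edgeR). Abcf2 likewise did not overlap, at 33.7 to 34.8 against 36.2 to 39.8 CPM (log2 fold change 0.13, SE 0.08, adjusted p = 0.26 by edgeR). Abcf1, a factor of translation initiation, had -0.07 and Abcf3 had 0.02, with overlapping values of 70.3 to 77.5 against 65.8 to 74.8 CPM and 33.5 to 40.6 against 37.0 to 38.4 CPM. Standard errors here were at most 0.09. Of 14 matched partners of ribosome rescue and initiation, 1 was lower (7.14%, against 16.2% of all genes tested), 2 were higher (14.3%, against 14.9%) and 11 were not called, with a median of 0.07. Pelo, which rescues stalled ribosomes together with Abce1, rose by 0.61, the initiation factor Eif2d rose by 0.36, and Eif2s3x on the X chromosome had -0.48 (adjusted p = 0.0070, 0.014 and 0.011 by edgeR).

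Of the 12 members below the count filter, 7 had no count in any library: Abca12, Abca13, Abca15, Abca16, Abca17, Abcb5 and Abcc8. Abcb1b had at most 20 counts in a library, Abca4 of the retina 11, Abca14 and Abcc12 6 each, and Abcg4 3. Abcc8 codes for SUR1, the channel subunit of pancreatic beta cells, and Abca12 serves the skin barrier. Expression below the floor could not be detected at this depth.

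Other transporters of the hepatocyte share substrates with the ABC pumps. Of 14 tested hepatic carriers and canalicular partners, 5 were lower (35.7%, against 16.2% of all genes tested), 4 were higher (28.6%, against 14.9%) and 5 were not called (median -0.15). Slc47a1, a cation extruder into bile, had a log2 fold change of -2.63 and the anion carrier Slco1a4 had -1.59 (adjusted p = 5.3e-06 and 0.0055 by edgeR). Slco1a1, a further anion carrier, was at 1.26 to 58.4 CPM against 259 to 538 CPM (log2 fold change 4.17, adjusted p = 0.0070 by edgeR). Of 15 xenobiotic and bile acid sensors and their targets, 4 were lower (26.7%), 1 was higher (6.67%) and 10 were not called (median -0.42). Por, the electron donor of cytochromes P450, had -2.75, Nqo1, a quinone reductase, had -1.62 and the glutathione transferase Gstm1 had 0.94 (adjusted p = 4.5e-05, 2.4e-04 and 0.0017 by edgeR). The pregnane X receptor Nr1i2, which controls drug transporters, had -0.42 (adjusted p = 0.033 by edgeR).

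Markers of cell types differed between the labels beside the members. Macrophage markers summed to 396 to 501 CPM in libraries labelled Bmal1+/+ and to 178 to 335 CPM in the others. Of these 6 markers, 5 were lower (83.3%, against 16.2% of all genes tested). Endothelial markers summed to 213 to 246 against 141 to 201 CPM, with 4 of 5 lower (80%, against 16.2%). Lymphocyte markers summed to 21.8 to 27.6 against 5.41 to 15.3 CPM, with 1 of 4 lower (25%, against 16.2%). Of the fibroblast markers, 4 of 7 tested were lower (57.1%, against 16.2%). The cholangiocyte and epithelial markers summed to 195 to 243 against 247 to 390 CPM. Of 6 tested, 2 were lower (33.3%, against 16.2%) and 2 higher (33.3%, against 14.9%). Among 8 hepatocyte markers 1 was lower (12.5%, against 16.2%) and 1 higher (12.5%, against 14.9%). The lower one, Alb, which makes up most of their sum in libraries labelled Bmal1+/+, was at 69270 ± 3372 against 16144 ± 2599 CPM (SD, n = 4 each). None of the listed markers was at 0 in all libraries of a label. The part of these shifts in the results for the ABC genes was not tested.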

How the data were processed

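Libraries described as the stromal vascular fraction of MC38 tumors, 4 labelled Bmal1+/+ and 4 labelled Bmal1-/-, were grouped by genotype and replicate labels. Per the paper, HISAT2 placed the read pairs on GRCm38 and StringTie gave the number of fragments on each gene. The authors deposited these as raw counts, while the submitters' processing notes name TopHat2 2.0.6 and CASAVA 1.8. Strand use is not given in the sources used here. The authors also deposited FPKM values, which equalled count over library total and 1 length per gene within 1% for 100% of 12597 genes with at least 10 counts in every library. FPKM was used for levels between genes and in 1 alternative. Input RNA differs between the labels and the paper, and the series text speaks of an array.

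Counts were normalized by TMM and tested with the quasi-likelihood test of edgeR 4.0.16 (filterByExpr, Benjamini-Hochberg adjustment, R 4.3.3) over 14353 genes, across all 8 libraries. The test was tested on simulated data. Gene symbols and positions were taken from a GENCODE annotation of GRCm38, in which 99.4% of 55487 identifiers matched. The members, lists and tests were chosen with earlier results of these data known. Values in every library are given for members with an adjusted p below 0.05, no overlap and a mean of at least 1 CPM, and members that were not called are given by their values or range; which of these are shown library by library was decided after their values were seen. List genes are named if called and among the 3 largest changes of the list, or as partners of a member. The results of some genes that the name rule or the lists take in are not reported here. The symbol of 1 listed gene, Gcn1, was not matched. The libraries were no duplicates of each other. Same-numbered libraries deviated together with correlations of -0.064 to 0.063, so the numbers were not taken to pair mice. Alternatives were DESeq2 1.42.0, upper-quartile scaling, library size only, the likelihood ratio test, limma-voom (limma 3.58.1), 2 other count filters, the replicate number as a block, limma on log2 of FPKM plus 0.1, and leaving out each library.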

Additional observations from a re-analysis of the deposited data

Results flagged for a closer look

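Among 74 groups of 4 values, 1 for each tested member and label, 3 held a library far from the others by Dixon's test, and chance alone would give about 1 in 20. Abcd2 was at 61.7 CPM in replicate 2 labelled Bmal1+/+, where the other 3 libraries labelled Bmal1+/+ lay between 89.3 and 92.9 CPM. Abca7 was at 10.1 CPM in replicate 1 labelled Bmal1-/-, below the 11.3 to 11.5 CPM of the other 3. Abcc10 was at 15.2 CPM in replicate 3 labelled Bmal1-/-, below 17.7 to 18.0 CPM. The cause was not tested in any of them.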

How the results depend on the processing

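Over 17 alternatives, 11 of the 16 called members were called wherever they were tested, and 1 of these, Abcb1a, was not tested under the strictest filter, which needs 10 counts in each library. The count of members lower ranged from 7 to 12 when 1 library was left out, with 7 without replicate 2 labelled Bmal1-/-, and the count past the study's criterion and higher ranged from 0 to 1, with 0 without replicate 4 of that label. On log2 of FPKM plus 0.1, 4 members were past the criterion and lower, and the pseudocount pulls low genes toward 0 by construction. With the replicate block, 11 members were lower and 4 higher, Abca7 and Abcc2 lost their call and Abca3 gained one (adjusted p = 0.061, 0.10 and 0.049 by edgeR), and 2064 genes in all were lower and 1809 higher. By library size only, 2177 genes were lower and 2282 higher, against 2322 and 2135 with TMM. Direction turned only in members that were not called. Abcb9 had -0.0078 under DESeq2, -0.0058 under upper-quartile scaling, -0.012 under limma-voom and -0.019 with at least 10 counts in every sample, and Abcc3 had 0.033 by library size only and 0.0043 without a filter. When 1 library was left out, the log2 fold change ranged from -0.21 to 0.16 for Abcb9, from -0.11 to 0.18 for Abcc3, from -0.14 to 0.090 for Abca1 and from -0.031 to 0.072 for Abcf3. The cause was not tested. Abca3 and Abcg1 were called under DESeq2 (adjusted p = 0.036 and 0.035) and limma-voom (0.047 and 0.045). Depth limits the low group of Abcd2 and Abcb1a, with 6 to 36 counts, and the 12 untested members.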
